A study of Bos taurus with 8 samples.

Results

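EMX2, PAX2, PAX8, SOX17, WT1, FOXL2, TCF21, NR2F1 and TRPS1 are 9 transcription factor genes known for building the female reproductive tract, the gonad and the tissues around them. They were taken as every gene of this set with a non-control probe on a bovine expression array, named by its symbol or through its accession, which gave 21 of the 51282 probes and 9 of 16576 gene symbols. The arrays compare 4 samples labelled pregnant (their descriptions place them after pregnancy) with 4 samples labelled non-pregnant (placed before pregnancy). Both groups are labelled as female fetal cotyledon of cattle, the tufts of fetal placenta that meet the uterine wall in ruminants, while the collection protocol speaks of uteri of pregnant buffalo obtained at a slaughterhouse, so buffalo RNA may have been read by cattle probes. No treatment or age is given in the labels, and none states that the samples of a group came from separate animals, so each p-value measures the spread between these samples, which may be technical. All arrays were on 1 slide and scanned in 1 run, with the groups in different rows of the slide, so slide row and group cannot be told apart.

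The uterus, oviduct and upper vagina form from the Müllerian duct, an epithelial tube that grows out of the coelomic lining beside the kidney duct. EMX2, PAX2 and PAX8 are required in the duct epithelium of the mouse embryo, WT1 marks the coelomic lining and the mesenchyme around the duct, and TCF21, NR2F1 and TRPS1 act in mesenchyme of several organs. SOX17, an endoderm and endothelial factor, is also made by adult uterine epithelium, and FOXL2 keeps the identity of ovarian granulosa cells and is made in the ruminant endometrium.

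Signals on the arrays went against the labels. The trophoblast products CSH2 (placental lactogen) and PAG2 (a pregnancy-associated glycoprotein) and the globin HBG averaged -1.41 ± 1.43, -3.10 ± 1.93 and -3.58 ± 0.30 on the arrays labelled pregnant, against 6.98 ± 0.41, 7.95 ± 0.34 and 7.73 ± 0.40 on those labelled non-pregnant (log2 signal over the 75th percentile of the array, SD, n = 4 each). For this reason the groups are called by their labels throughout, and no direction below refers to a known state of the tissue. Arrays correlated at 0.943 to 0.989 within the group labelled pregnant, at 0.957 to 0.987 within the group labelled non-pregnant and at 0.736 to 0.783 between groups. Labelled pregnant array 4 reached only 0.943 to 0.951 with the other 3 of its group, which correlated at 0.977 to 0.989 among themselves. In limma, with p-values adjusted over every tested probe by the Benjamini-Hochberg method, 8172 of 13044 tested genes (62.6%) passed an adjusted p below 0.05, of which 3872 (29.7%) rose and 4300 (33%) fell where the label was pregnant. The median difference over all of them was -0.03. Among called genes 47.4% were higher, a share that became 31.3% without scaling and 34.7% with median scaling of the arrays.

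Of the 21 probes, 18 were well above background on at least 4 of 8 arrays and were tested, for 8 of the 9 genes. PAX2 had no tested probe. A gene with several tested probes is represented by the brightest of them, by the mean over all arrays, and every difference below is on the log2 scale with the group labelled non-pregnant subtracted. Signals of different probes are not on 1 scale, so the 9 genes are not ranked by level. Some probes are shown because the reading of a gene turns on them: the second SOX17 probe, which has a twin of the same sequence elsewhere on the array, the single PAX2 probe and an NR2F1 probe that stayed near background, the pair of FOXL2 probes of which 1 gave signal, and the TRPS1 probe that stands for its gene with another whose listed coordinates span 17019 bases. The sequences are those of the deposited scanner files, 5′ to 3′, and capitals mark the longest run of bases shared with a probe of another gene:
PAX2 A_73_P511083: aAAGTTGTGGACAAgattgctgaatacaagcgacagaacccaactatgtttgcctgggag
SOX17 A_73_P072866: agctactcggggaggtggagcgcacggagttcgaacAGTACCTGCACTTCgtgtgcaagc
FOXL2 A_73_P102476: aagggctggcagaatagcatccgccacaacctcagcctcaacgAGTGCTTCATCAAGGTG
FOXL2 A_73_100014: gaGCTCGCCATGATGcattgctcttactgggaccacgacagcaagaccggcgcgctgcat
NR2F1 A_73_P109271: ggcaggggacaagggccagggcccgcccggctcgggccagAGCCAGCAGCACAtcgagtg
TRPS1 A_73_P073056: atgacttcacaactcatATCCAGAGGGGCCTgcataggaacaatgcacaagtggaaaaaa
TRPS1 A_73_P367401: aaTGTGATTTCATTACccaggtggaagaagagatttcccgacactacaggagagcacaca
In build HGSC Btau_3.1, which the file headers name, the PAX2 probe lies at bases 19027 to 19086 of an unplaced contig, the second SOX17 probe at chr14:22089595-22089654, and the FOXL2 probes at chr1:132094979-132095038 and chr1:132094129-132094188. The NR2F1 probe lies at chr7:94372936-94372995 and the TRPS1 probes at chr14:46328856-46328915 and chr14:46128209-46145227. The files do not place probes in exons, introns or untranslated regions, and no annotation of this build was used here. Across the 21 probes the longest run shared with a probe of another gene was 13 to 17 of 60 bases. The 17 bases belong to the FOXL2 probe and match a probe of FOXJ1, another gene of the forkhead family, in the part that encodes the DNA-binding forkhead domain. FOXJ1, represented by another of its probes, rose by 1.03 (SE 0.34; limma adjusted p = 0.026). That probe was above background on 3 of 4 arrays labelled pregnant. The part of FOXJ1 in the FOXL2 signal was not tested.

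Among the 8 tested genes, EMX2, SOX17, WT1, FOXL2, NR2F1 and TRPS1 rose in the arrays labelled pregnant, TCF21 fell, and PAX8 did not pass the test. The 7 calls stand beside 62.6% of all tested genes called, and the median difference of the 8 genes was 2.67 beside -0.03 over all genes. The 4 values of each group did not overlap for 6 of the 8 genes, all higher in the arrays labelled pregnant, where 60.3% of all genes did not overlap, 28.3% with the arrays labelled pregnant higher and 32% with them lower. Of the 18 tested probes 14 rose, 1 fell and 3 were not called, beside 59.4% of all probes called, 30.3% higher and 29.1% lower. In whole tissue, fewer cells of a type and less RNA per cell cannot be told apart.

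**Figure D1:**
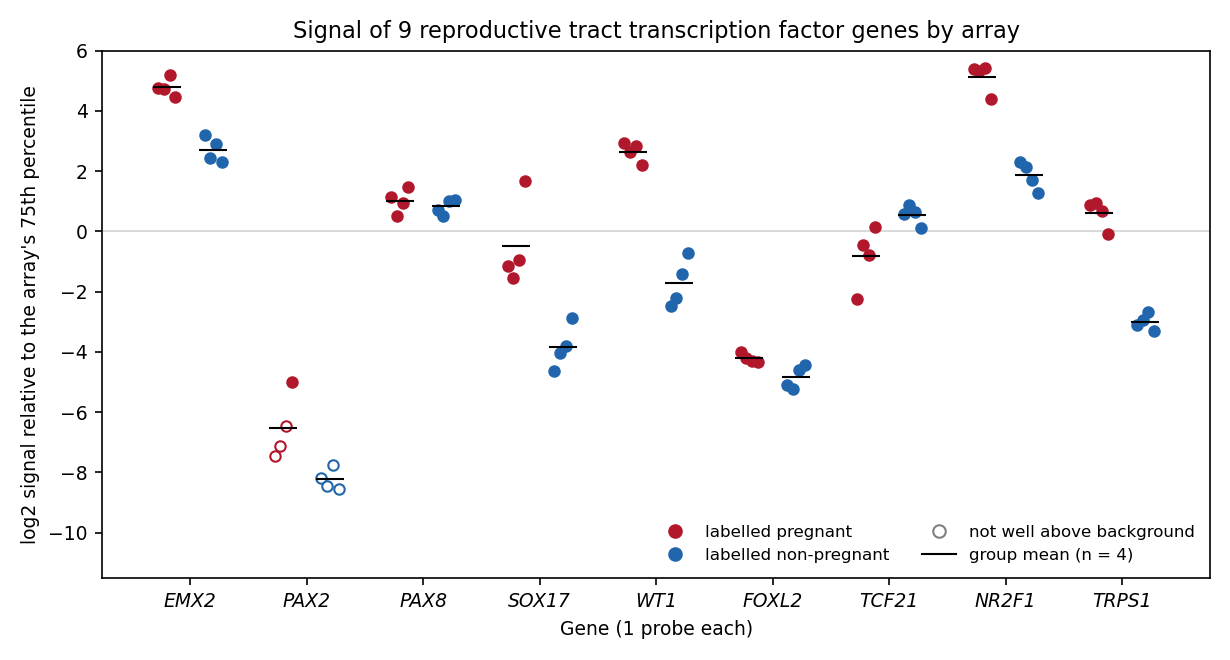
Log2 signal over the 75th percentile of the array (y axis) for 1 probe of each of the 9 genes (x axis), with each array as a point, arrays labelled pregnant left of those labelled non-pregnant, the mean of each group of 4 as a line and open points where the probe was not well above background. EMX2, SOX17, WT1, FOXL2, NR2F1 and TRPS1 have all 4 labelled pregnant values above all labelled non-pregnant values, PAX8 and TCF21 overlap, and PAX2 is above background on 1 array. Heights of different genes are not comparable.

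EMX2, a homeobox factor needed for the Müllerian duct and its epithelium in mice, gave signals of 4.77, 4.74, 5.20 and 4.47 on the arrays labelled pregnant, against 3.20, 2.44, 2.89 and 2.30 on those labelled non-pregnant, for a probe at chr26:38245239-38245298. Every array labelled pregnant was above every array labelled non-pregnant. The difference was 2.08 (SE 0.26, 4.24-fold; limma adjusted p = 0.000141). All 5 EMX2 probes lie within 1302 bases, and the other 4 gave 2.20, 2.20, 2.70 and 1.72, with SEs between 0.17 and 0.29, and each passed the test. A pair of these probes overlaps by 40 bases and so reads nearly the same stretch. EMX1, its only close paralog, reached above background on 1 of 4 arrays labelled pregnant and all 4 labelled non-pregnant, and fell by 3.35 (SE 0.35; limma adjusted p = 5.07e-05).

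PAX2 and PAX8 are paired-box factors that act together in the duct epithelium and the kidney. PAX2 gave -7.46, -7.14, -6.46 and -5.01 on the arrays labelled pregnant, against -8.18, -8.45, -7.75 and -8.54 on those labelled non-pregnant. Array 4 labelled pregnant alone was well above background, so the gene was not tested. PAX8 gave 1.13, 0.53, 0.95 and 1.47 on the arrays labelled pregnant, against 0.72, 0.52, 1.03 and 1.06 on those labelled non-pregnant. The groups overlapped, with a difference of 0.19 (SE 0.24, 95% interval -0.37 to 0.74; limma adjusted p = 0.528). Its sign turned under other scalings, to -0.30 without scaling and -0.20 with median scaling. The other PAX8 probes gave 0.10 (95% interval -0.37 to 0.58) and 0.01 (-0.68 to 0.71), and the first of them shares 33 bases with the probe that stands for the gene. Of the other PAX genes, PAX1 and PAX5 were tested and neither was called, with differences of 0.27 (SE 0.23) and 0.46 (SE 0.28) and limma adjusted p = 0.335 and 0.178.

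SOX17 was the duct and uterine epithelial factor with the widest spread within a group. It gave -1.13, -1.53, -0.94 and 1.68 on the arrays labelled pregnant, against -4.64, -4.04, -3.79 and -2.88 on those labelled non-pregnant. The groups did not overlap, and array 4 labelled pregnant was 2.89 above the mean of the other 3. The difference was 3.36 (SE 0.69, 10.2-fold; limma adjusted p = 0.00273), and 2.64 without that array. The second SOX17 probe gave 3.57 (SE 0.74). Among the arrays labelled non-pregnant, 3 of 4 were above background for it. A probe of identical sequence, listed under an accession without a symbol, repeated its readings with a median gap of 0.09 and a largest gap of 0.26. SOX18, the tested paralog of the same SOX subgroup and an endothelial factor, was not called, at 0.57 (SE 0.25; limma adjusted p = 0.078).

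WT1, a zinc finger factor of the coelomic lining, the embryonic kidney and endometrial stroma, gave 2.94, 2.64, 2.83 and 2.19 on the arrays labelled pregnant, against -2.49, -2.20, -1.43 and -0.73 on those labelled non-pregnant (chr15:62693183-62693242). The difference was 4.36 (SE 0.38, 20.5-fold; limma adjusted p = 1.84e-05), with no overlap. Its second probe lies 36574 bases away and gave -0.75, -1.10, -0.82 and -1.48 on the arrays labelled pregnant, while no array labelled non-pregnant was well above background (-8.30, -8.63, -8.13 and -8.71). There the signal was at least 74.7-fold higher in the arrays labelled pregnant (limma adjusted p = 1.17e-07). This bound sets the mean of the arrays labelled pregnant against the lowest signal counted as above background on each array labelled non-pregnant, or the probe's own signal where that is higher. Both probes moved the same way, while their sizes differed. Of the related EGR zinc finger genes, EGR1 rose by 2.08 (SE 0.46; limma adjusted p = 0.00403) and EGR2 was not called, at 0.31 (SE 0.23).

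TCF21 was the only member that fell. This basic helix-loop-helix factor of organ mesenchyme gave -2.26, -0.43, -0.78 and 0.15 on the arrays labelled pregnant, against 0.57, 0.89, 0.66 and 0.12 on those labelled non-pregnant (chr9:74255576-74255635). Array 4 labelled pregnant reached the range of the other group, so the groups overlapped. The difference was -1.39 (SE 0.47; limma adjusted p = 0.0296). It was -0.91 without array 1 labelled pregnant, and the call was lost without array 3 labelled pregnant (adjusted p = 0.0568) and without arrays 1, 2 or 3 labelled non-pregnant (0.0587, 0.0749 and 0.063). A contig probe described as TCF21 exceeded background on 0 of 4 arrays labelled pregnant and 1 of 4 labelled non-pregnant and was not tested. Its paralogs split, with TCF23 2.72 higher (SE 0.59; limma adjusted p = 0.00347) and a fall of TCF15 to -3.72 on the arrays labelled pregnant, against -1.89 on those labelled non-pregnant (difference -1.83, SE 0.27; 0.000361).

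NR2F1, an orphan nuclear receptor of mesenchyme and nerve tissue, gave 5.38, 5.34, 5.41 and 4.38 on the arrays labelled pregnant, against 2.32, 2.15, 1.71 and 1.29 on those labelled non-pregnant (chr7:94382363-94382422). The groups did not overlap, with a difference of 3.26 (SE 0.32, 9.61-fold; limma adjusted p = 3.28e-05). Its second probe, in a stretch of 75% G and C, was well above background on 1 of 4 arrays in each group and was not tested. NR2F2, the close relative of NR2F1 that uterine stroma needs for implantation in mice, rose by 1.46 (SE 0.25; limma adjusted p = 0.000994). The other 4 tested receptors of this family fell: NR2F6 by 1.34 (SE 0.18), NR2C1 by 1.42 (SE 0.18), NR2C2 by 1.91 (SE 0.23) and NR2E3, which was at least 24.5-fold lower and was not well above background on any array labelled pregnant. All 4 had limma adjusted p of 0.000195 or less.

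TRPS1, a GATA-type zinc finger repressor of skeletal and mesenchymal development, gave 0.88, 0.93, 0.68 and -0.09 on the arrays labelled pregnant, against -3.11, -2.95, -2.68 and -3.32 on those labelled non-pregnant. The groups did not overlap, and the difference was 3.61 (SE 0.27, 12.2-fold; limma adjusted p = 6.88e-06). Its other probes gave 4.69 (SE 0.30) and, where no array labelled non-pregnant was well above background, at least 4.87-fold higher signal. Of the GATA factors with which TRPS1 shares its zinc finger, GATA3, a trophoblast and epithelial factor, fell by 4.87 (SE 0.51), GATA6 by 1.63 (SE 0.23) and GATA2 by 1.24 (SE 0.21), all with limma adjusted p of 0.00102 or less. GATA4 and GATA5 were not called, at -0.57 (SE 0.47) and -0.91 (SE 0.48).

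FOXL2, the ovarian forkhead factor, showed the smallest called difference of the 9 genes. It gave -4.00, -4.21, -4.29 and -4.33 on the arrays labelled pregnant, against -5.09, -5.21, -4.61 and -4.42 on those labelled non-pregnant. The closest values of the groups were -4.33 and -4.42, so they were separated by less than 0.1. The difference was 0.62 (SE 0.22, 1.54-fold; limma adjusted p = 0.0377). The call was lost under 10 of 20 alternative settings, among them no scaling (0.14, adjusted p = 0.717), median scaling (0.24, 0.366) and quantile normalization (0.18, 0.405). It was also lost without arrays 1, 2 or 3 labelled pregnant (0.0947, 0.0782 and 0.0696) and without arrays 1 or 2 labelled non-pregnant (0.0853 and 0.108). The second FOXL2 probe, 850 bases away, was not well above background on any of the 8 arrays. Of the 5 tested ovarian granulosa markers, AMH was not called at 0.57 (SE 0.42), INHBA rose by 3.65 (SE 0.57) and HSD17B1 by 0.87 (SE 0.20). INHA fell by 3.07 (SE 0.17), and the aromatase gene CYP19A1 was at least 15.1-fold lower with no array labelled pregnant above background.

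**Figure D2:**
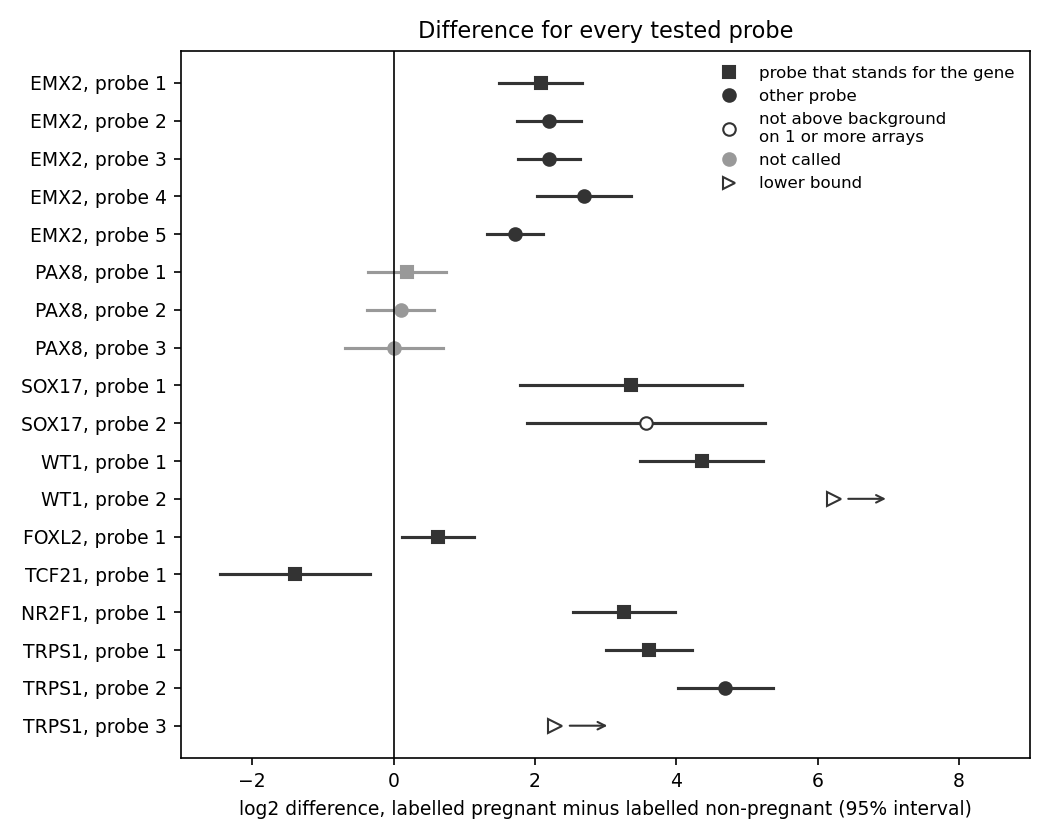
Log2 difference, labelled pregnant minus labelled non-pregnant, with its 95% interval (x axis), for each of the 18 tested probes (rows; n = 4 arrays per group). Squares are the probes that stand for a gene, open circles were not above background on 1 or more arrays, grey marks were not called, and triangles with arrows are lower bounds with no interval, for probes at background on all arrays labelled non-pregnant. All 5 EMX2 probes lie between 1.72 and 2.70, WT1 lies at 4.36 with a bound of at least 74.7-fold for its second probe, TRPS1 lies at 3.61 and 4.69 with a bound of at least 4.87-fold, and the PAX8 intervals all cross 0.

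Of 26 other tested transcription factors of the Müllerian duct and uterus, 9 rose, 9 fell and 8 were not called. These 69.2% called stand beside 62.6% of all genes (29.7% higher and 33% lower), with a median difference of 0.14 beside -0.03 over all genes. The progesterone receptor gene PGR rose by 8.13 (SE 0.47), with 4 of 4 arrays labelled pregnant and 1 of 4 labelled non-pregnant above background. MEIS1, a homeobox cofactor, rose by 4.56 (SE 0.31) and HOXA10, which patterns the uterus and its stroma, by 4.31 (SE 0.44). DACH1, a nuclear cofactor that acts in the duct of mice, rose by 3.94 (SE 0.63), with 3 of 4 arrays labelled non-pregnant above background. LHX1, the duct-inducing LIM homeobox gene that acts with EMX2 and PAX2 in mice, fell by 3.96 (SE 1.03; limma adjusted p = 0.00921), with 2 of 4 arrays labelled pregnant above background. The others named here had limma adjusted p of 0.000669 or less. DACH2, HAND2 and HOXA11 were not analysed here, since no probe was matched to these names.

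Of factors of the gonad and kidney, 4 of 16 rose, 2 fell and 10 were not called (37.5% called beside 62.6% of all genes), with a median difference of 0.25. EYA2, a transcriptional coactivator, was at least 317-fold higher, with no array labelled non-pregnant above background. OSR2, a mesenchymal zinc finger factor, rose by 5.07 (SE 0.39), MECOM by 3.53 (SE 0.31) and SOX8, a SOX9 relative of the testis, by 2.90 (SE 0.56). SALL4, a stem cell zinc finger factor, fell by 3.74 (SE 0.37). All 5 had limma adjusted p of 0.00199 or less. Of the members' paralogs described above, 14 formed a list of their own. NR2F2, GATA2, GATA4 and GATA6 were left out of it, since they were counted among the duct and gonad factors. Of the 14, 2 rose, 7 fell and 5 were not called (64.3% called beside 62.6% of all genes). Their median difference was -1.12.

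Signals, partners and targets of the ducts gave 7 of 21 higher, 7 lower and 7 not called (66.7% called beside 62.6% of all genes), with a median difference of 0.53. The GDNF receptor pair, which drives budding of the kidney duct, was higher: GFRA1 at least 40.2-fold and RET by 3.96 (SE 0.74; limma adjusted p = 0.00161). On the arrays labelled non-pregnant, RET was above background on 1 of 4, so its size rests in part on signals near background. AMHR2, the receptor through which anti-Müllerian hormone makes the duct regress, fell by 5.20 (SE 0.37), and its ligand AMH was not called. On the arrays labelled pregnant, AMHR2 was above background on 2 of 4. BMP7, a growth factor of the kidney and uterus, fell by 4.76 (SE 0.27; limma adjusted p = 1.84e-06).

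Markers of some other cell types mostly went 1 way and those of others split, and their part in the results was not tested. The marker counts below stand beside 29.7% of all genes called higher and 33% called lower. Trophoblast markers fell for 10 of 12 and rose for 1, with a summed log2 level of 4.82 to 5.39 on the arrays labelled pregnant and 9.23 to 9.90 on those labelled non-pregnant, and KRT18 was not called. The marker that rose, named after its values were seen, was ELF5, by 3.03 (SE 0.95; limma adjusted p = 0.022). It gave 1.40, 0.58, 0.95 and -3.39 on the arrays labelled pregnant, against -2.69, -3.49, -2.63 and -3.78 on those labelled non-pregnant, so the groups overlapped. CDX2 and PLAC1, named after their values were seen, were not well above background on any array labelled pregnant. PAG2 and PRP1 were above it on 3 of 4 of these arrays and the other 8 tested markers, CSH2 among them, on all 4. The keratin gene KRT8, made by many epithelia, fell by 1.74 (SE 0.27). Erythroid markers fell for 7 of 7, with summed levels of -0.68 to 1.52 on the arrays labelled pregnant and 8.40 to 9.24 on those labelled non-pregnant. Of the globins, HBA fell by 8.26 (SE 0.56) and HBB was at least 1515-fold lower. Endometrial stroma markers rose for 6 of 8 and fell for 1, with summed levels of 8.00 to 8.62 on the arrays labelled pregnant and 6.97 to 7.62 on those labelled non-pregnant. DCN, a collagen-binding matrix gene, rose by 2.51 (SE 0.33), MME fell by 3.39 (SE 0.21) and VIM was not called, at 0.36 (SE 0.21). Smooth muscle markers rose for 6 of 8 and none fell, with summed levels of 5.50 to 6.61 on the arrays labelled pregnant and 4.32 to 4.91 on those labelled non-pregnant. The muscle filament gene DES rose by 3.41 (SE 0.21) and the actin gene ACTA2 by 1.23 (SE 0.46), while MYH11 was not called, at -0.76 (SE 0.57).

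Gland and luminal epithelium markers rose for 3 of 9 and fell for 2, with a median difference of -0.11. The 3 that rose were named after their values were seen. GRP averaged 7.07 on the arrays labelled pregnant and -1.93 on those labelled non-pregnant. SERPINA14 rose by 6.69 (SE 1.41) and OVGP1 by 3.06 (SE 0.27), while SPP1 fell by 5.92 (SE 0.59). In the group labelled non-pregnant, just 1 array read SERPINA14 clear of background, so the size of its rise depends partly on background readings. In the group labelled pregnant, 3 of 4 arrays read SPP1 clear of background. The summed levels were 7.26 to 7.73 on the arrays labelled pregnant, where GRP alone gave 6.28 to 7.46, and 6.11 to 6.69 on those labelled non-pregnant. The adhesion gene CDH1 fell by 2.22 (SE 0.33), and EPCAM and MUC1 were not called, at -0.67 (SE 0.42) and -0.54 (SE 0.22). Endothelial markers rose for 2 of 12 and fell for 3, with a median difference of 0.12 (summed levels 4.70 to 5.13 against 3.98 to 4.24). EMCN, a sialomucin of vessels, rose by 1.60 (SE 0.25), and CLDN5, a tight junction gene, was not called, at 0.77 (SE 0.32). Mesothelial markers rose for 2 of 6 and fell for 2 (4.42 to 5.18 against 5.53 to 5.87), with KRT19 lower by a difference of -1.91 (SE 0.27) and UPK1B and MSLN not called, at 0.38 (SE 0.22) and -2.68 (SE 1.29). MSLN was -1.17 without labelled pregnant array 4. Leukocyte markers rose for 6 of 8 and fell for 1, with a median difference of 4.43, while their summed levels were 4.62 to 6.05 on the arrays labelled pregnant and 5.99 to 6.50 on those labelled non-pregnant. CSF1R, the strongest signal of the list, gave 3.33 to 4.36 on the arrays labelled pregnant and 5.83 to 6.24 on those labelled non-pregnant, so the sums follow it. T cell, antigen presentation and killer cell genes were named after their values were seen. Of these, CD3E rose by 10.30 (SE 0.63), CD74 by 6.43 (SE 0.40) and NKG7 by 6.22 (SE 0.38), and CD3G was at least 158-fold higher. On the arrays labelled non-pregnant, CD3E was above background on 1 of 4 and CD74 on 2 of 4. The sizes given for CD3E and CD74 therefore rest in part on signals near background. The monocyte receptor gene CD14 rose by 2.65 (SE 0.36), the macrophage receptor gene CSF1R fell by 1.93 (SE 0.26) and PTPRC was not called, at 0.01 (SE 0.36). Granulosa cell markers rose for 2 of 5 and fell for 2 (1.67 to 2.06 against 0.59 to 1.18). A summed level adds probes whose signals are not on 1 scale, so it follows the brightest of them and need not go the way of most genes of its list.

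Labelled pregnant array 4 placed the members in opposite ways. It was the highest of its group for SOX17, TCF21 and PAX8, by 2.89, 1.31 and 0.60 over the mean of the other 3 arrays, and the lowest for NR2F1, TRPS1, WT1, EMX2 and FOXL2, by -0.99, -0.92, -0.61, -0.44 and -0.17. PAX2 was above background on that array alone. Over all 13044 genes the same array was above the other 3 for 32.5% and below them for 43.3%, and its shift had a median size of 0.43. Other duct and epithelial genes, chosen for naming after their values were seen, went both ways. IHH, EPCAM and CDH1 were higher on it, by 3.15, 1.87 and 1.15, as were the kidney factor OSR1 by 5.39 and the activin antagonist FST by 5.25. WNT7A, LHX1, GRP and KRT19 were below all of the other 3, with shifts of -3.43, -2.57, -1.06 and -0.85. On array 4, WNT7A (-7.97) and LHX1 (-7.76) lay under the lowest signal counted there as above background (-6.81). The sizes of these shifts therefore rest in part on background. PGR, HOXA10 and OSR2 were lower on array 4 than on the other 3, PGR by -2.10 and HOXA10 by -1.91. The markers of endometrial stroma were below the other 3 arrays for 7 of 8 genes and those of leukocytes for 8 of 8, while those of gland and luminal epithelium were above them for 4 of 9 and below for 2.

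**Figure D3:**
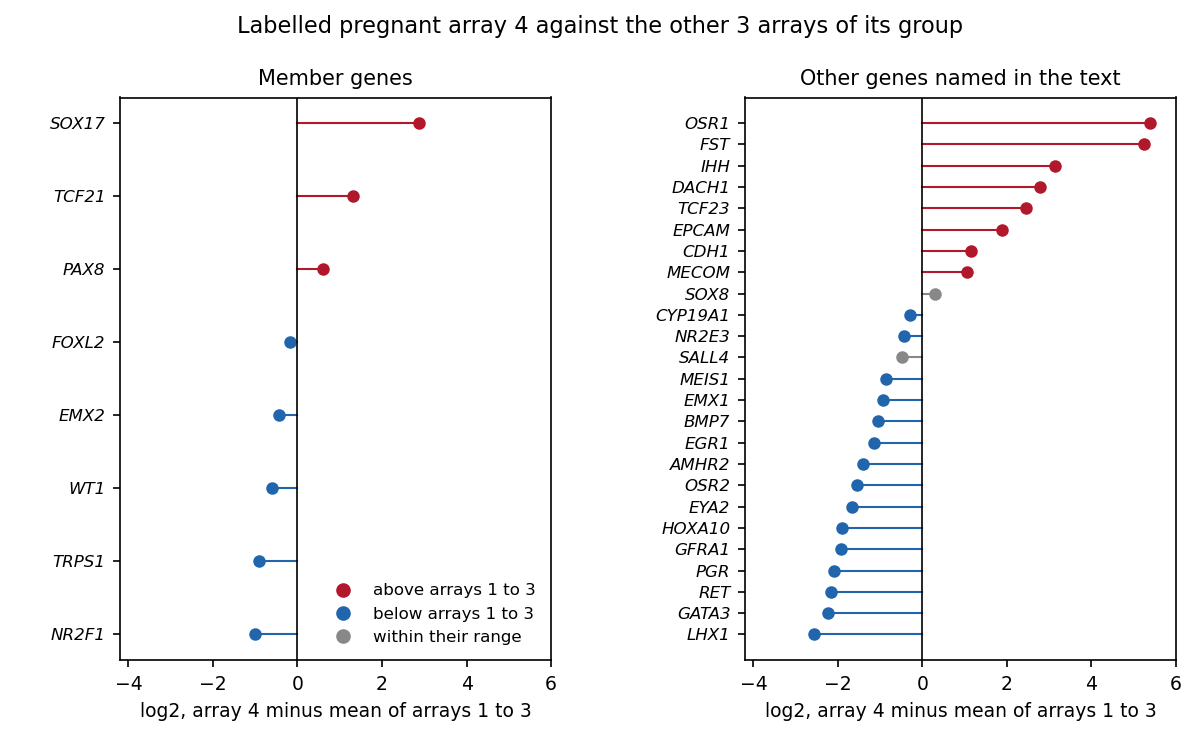
Log2 signal of labelled pregnant array 4 minus the mean of arrays 1 to 3 of the same group (x axis), for the 8 tested member genes (left) and for some of the other genes named in the text (right), coloured by whether array 4 lies above, below or within the other 3. SOX17, TCF21 and PAX8 lie above and the other 5 members below. IHH, OSR1, FST, CDH1 and EPCAM were added to the right panel after their values were seen, and all of them lie above. WNT7A, GRP and KRT19, which lie below, are not shown, so the right panel leans upward.

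The genes whose signals ran closest to each member across the 8 arrays, after each was centred on its own mean, were found by the root mean square difference over the arrays. Nearest to EMX2 were ZNF12, TNRC18 and EFNA2 (0.13 to 0.20 log2 units), to WT1 HERC5, CHST1 and GRIK5 (0.27 to 0.35), to NR2F1 PDE4A, MATN2 and PTGER4 (0.13 to 0.22) and to TRPS1 COX7A1, LMCD1 and ZCWPW2 (0.15 to 0.18). SOX17 had more distant neighbours in MYO5C, GPRC5A and STX19 (0.39 to 0.45). TCF21 was nearest to SQLE, MSMO1 and IDI1 (0.20 to 0.30), which are 3 enzymes of cholesterol synthesis. PAX8 was nearest to TJAP1, SYNGR2 and CASKIN2 (0.13 to 0.15), and FOXL2 to DMXL1, TCOF1 and CASTOR1 (0.07 to 0.12). With 8 arrays in 2 groups, this likeness includes the group difference itself.

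EMX2, SOX17, WT1, NR2F1 and TRPS1 stayed called in the same direction under all 20 alternative settings. Their differences ranged from 1.60 to 2.54 for EMX2, 2.64 to 3.71 for SOX17, 3.88 to 5.88 for WT1, 2.78 to 3.63 for NR2F1 and 3.13 to 4.69 for TRPS1. The highest WT1 value is a median over both probes and takes in the one that supports only a bound.

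**Figure D4:**
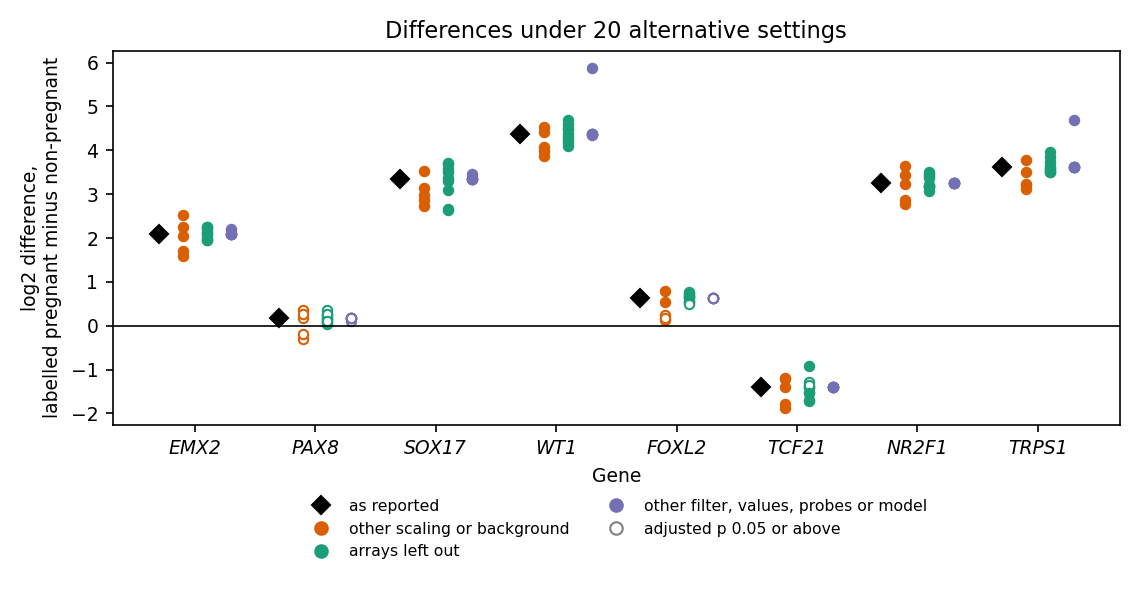
Log2 difference, labelled pregnant minus labelled non-pregnant (y axis), for the 8 tested genes (x axis) as reported (diamonds, of which only PAX8 was not called) and under 20 alternative settings (circles, coloured by kind of setting, open where the adjusted p was 0.05 or above). EMX2, SOX17, WT1, NR2F1 and TRPS1 lie above 1.5 in every setting, PAX8 falls on both sides of 0, and FOXL2 lies between 0.14 and 0.79.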

How the data were processed

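RNA of 8 samples, 4 labelled pregnant and 4 labelled non-pregnant, was labelled with Cy3 and read on one-colour Agilent bovine arrays, per the labels' protocols. The authors deposited spot intensity values made with Agilent Feature Extraction 11.5.1.1, per the file headers, which are background-subtracted and not scaled between arrays. A deposited table of log2 values matched log2 of those intensities at r = 0.999 or above with a 75th percentile near 0. Its column medians were -3.56, -3.61, -3.64 and -3.61 for arrays labelled pregnant and -4.21, -4.01, -4.00 and -3.77 for those labelled non-pregnant. How the authors centred it is not stated in the sources used here, and it served as an alternative.

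Here log2 of the processed intensity minus the array's 75th percentile was used. Control spots (1319 per array) and 119 outlier spots over the 8 arrays were left out, no spot was saturated, and spots of 1 probe were averaged. The share of probes well above background was 60.6% to 66.0% on arrays labelled pregnant and 63.7% to 69.5% on those labelled non-pregnant, and the number of arrays limits the precision. A probe was tested when well above background on at least 4 of 8 arrays, by lmFit and eBayes of limma 3.58.1 (R 4.3.3) without covariates and Benjamini-Hochberg adjustment over 34627 probes at 0.05. The procedure was checked on simulated data. Names came from the files and from RefSeq genes of ARS-UCD2.0, from which no coordinates were taken.

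The members and all gene lists were chosen with earlier results of these data known, so lists are described by counts and medians. Every member is described with all of its probes, of which those the results turn on are given by identifier, with up to 5 called genes of each other list with the largest differences among genes whose groups do not overlap, all tested paralogs, the 3 markers of each list with the highest signal, and the 3 nearest genes of each member. All 5 tested granulosa markers are named, and a few further genes are said to be chosen after their values were seen. Background correction, scaling, the filter, the source of values, the rule for several probes, the spread model, a replicate block and leaving out arrays were tried as alternatives.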

Additional observations from a re-analysis of the deposited data

Results flagged for a closer look

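In groups of 4 arrays, the highest or lowest array was marked where its gap to the nearest other exceeded Dixon's 95% critical value as a share of the group's range. Chance marks about 1 in 20 groups, and 15 of 136 examined here were marked, 11 of them through labelled pregnant array 4. Among the members, that array was highest for the second SOX17 probe (0.35, next -2.45) and lowest for NR2F1 (4.38, next 5.34) and for a second TRPS1 probe (-0.31, next 0.71).

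Among other named genes of the arrays labelled pregnant, array 4 was lowest for PGR (0.22, next 2.19), HOXA10 (2.88, next 4.77), the mesothelial marker MSLN (-5.39, next 0.19) and the macrophage receptor gene CSF1R (3.33, next 4.28). It was highest for DACH1 (0.12, next -2.43), TCF23 (2.58, next 0.32), the epithelial adhesion gene EPCAM (5.33, next 3.59) and the globin HBA (1.37, next -0.98). Array 1 labelled pregnant was lowest for the smooth muscle myosin gene MYH11 (-0.23, next 2.27). Of the arrays labelled non-pregnant, array 2 was highest for BMP7 (2.55, next 2.35) and MME (5.96, next 5.63), and array 1 was highest for the leukocyte gene PTPRC (3.83, next 2.59). Without labelled pregnant array 4 the difference of SOX17 was 2.64 beside 3.36 with it, that of NR2F1 3.51 beside 3.26, and that of TRPS1 3.84 beside 3.61.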

How the results depend on the processing

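Of 120 recomputed totals of genes, members and list genes called, 118 stayed within 1.5 times of the value reported. The exceptions were that 2509 genes were called higher without scaling, against 3872 as reported, and 29 genes of the 4 other lists were called under a filter for probes well above background on all 8 arrays, which tests fewer genes, against 47. Of 80 recomputed list medians 8 moved by more than the spread between arrays, and of 160 list counts 6 moved by over 1.5 times. The median difference of all genes was -0.52 without scaling, -0.42 with median scaling, 0.13 with the percentile over detected probes and 0.22 without the filter, against -0.03 as reported. Member differences moved with these scalings, with quantile normalization and with another background correction. The filter could not change them, since the probe of each tested member was well above background on all 8 arrays and stayed the same. PAX8 turned to -0.30 without scaling and -0.20 with median scaling. Without the filter on dim probes PAX2 could be tested, at 1.71 (SE 0.49; limma adjusted p = 0.0184), although it was well above background on 1 array. FOXL2 also lost its call with a trended, robust spread model (adjusted p = 0.0723). Whether replicate numbers pair the samples was not settled. Correlations of deviations between arrays of the same number were low, at 0.01 to 0.15. Even so, 3 of 4 arrays in each group were closest to their own number. With a replicate block 7933 genes were called against 8172, and FOXL2 lost its call (adjusted p = 0.0751). The cause of the other changes was not tested. Probes near background, such as those of PAX2 and FOXL2, are limited by signal.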

Other observations

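Over the 26 duct and uterine factors, labelled pregnant array 4 was above the other 3 arrays of its group for 10 genes and below them for 14. It was above for 6 and below for 7 of 16 gonad and kidney factors. Over all genes the same array was above the other 3 for 32.5% and below them for 43.3%. Some values moved when it was left out: OSR1, a kidney zinc finger factor, gave -2.57 without it and -1.22 with it, and FST, which FOXL2 regulates in ovarian cells, gave -5.46 without it and -4.15 with it. GLI1, a target of the hedgehog ligand IHH, was 1.90 higher on that array than on the other 3. These genes were chosen after their values were seen.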
